A study of Arabidopsis thaliana with 18 samples.

Results

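*LURP1* (AT2G14560), *ANK* (AT5G54610) and the lectin gene AT5G03350 are 3 defense genes of *Arabidopsis thaliana* that reached high signal in the systemic leaves of plants inoculated elsewhere with *Pseudomonas syringae* pv. *maculicola* (*Psm*), in the *bak1-5* mutant as in the wild type. Each was measured by 1 probe set of the ATH1 array, 265837_at for *LURP1*, 248169_at for *ANK* and 250942_at for AT5G03350, so the 3 genes make 3 of the 22746 probe sets tested. They were chosen by their changes in *bak1-5* and the wild type, as defense genes whose induction in *bak1-5* was at least that of the wild type, and their values in these 2 genotypes are given as a description without a test. Only the mean change in *lecrk-VI.2-2* rests wholly on arrays that the choice did not use. Its standard error and test come from a fit of all 18 arrays.

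There were 6 groups of 3 arrays, all from Col-0 plants that were 4 weeks old: *bak1-5* with *Psm*, *bak1-5* with MgCl2, *lecrk-VI.2-2* with *Psm*, *lecrk-VI.2-2* with MgCl2, the wild type with *Psm* and the wild type with MgCl2. *Psm* at an OD600 of 0.002 in 10 mM MgCl2, or 10 mM MgCl2 alone, was infiltrated into 3 lower leaves of each plant, and systemic leaves were taken 48 h later, from 12 plants for each sample. *bak1-5* carries an altered form of the co-receptor kinase BAK1, which acts with many receptors at the cell surface, and in *lecrk-VI.2-2* a T-DNA disrupts *LecRK-VI.2*, the gene of a lectin receptor kinase; each genotype is a single mutant line. The comparisons asked how far induction of systemic acquired resistance (SAR) changed gene expression in plants altered in these receptors. Values are log2 signals, on which a difference of 1 is a doubling, and a change is the mean with *Psm* minus the mean with MgCl2 in the same genotype. The arrays were biological replicates, but no source used here says whether they came from separate days, so errors measure the spread between these samples.

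In SAR, infection of one leaf leads uninfected leaves to accumulate salicylic acid (SA), which acts through the receptor and coactivator NPR1 to switch on a large set of defense genes. *LURP1* is named for its late upregulation in response to the oomycete *Hyaloperonospora parasitica* and is needed for full basal defense to it; the family of LURP-one-related proteins takes its name from it. *ANK*, also known as *BDA1*, encodes a protein with ankyrin repeats and membrane spans that acts in immunity together with the receptor-like protein SNC2. AT5G03350 encodes a legume lectin-like protein without a kinase domain and is known as a gene induced by SA. In whole leaves, more cells expressing a gene and more RNA per cell cannot be told apart.

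All 18 arrays had medians between 4.45 and 4.59. A pair of *lecrk-VI.2-2* arrays, replicate 3 with *Psm* and replicate 2 with MgCl2, had 16.8% and 16.0% of their probe sets at 6 or above. The other 16 arrays had 18.2% to 19.6%. The changes of the 3 genes in *lecrk-VI.2-2* are given with and without this weak pair. Tests of list genes for a difference between *lecrk-VI.2-2* and another genotype are given only with the pair. *RCA*, the Rubisco activase of photosynthetic cells, lay between 12.42 and 12.85 in all arrays, while the guard cell gene *FAMA* and the root gene *PYK10* stayed between 5.02 and 5.52 and between 3.38 and 3.79. The other 13 listed cell type markers had no probe set assigned to 1 gene here. The probe set of *LecRK-VI.2* in *lecrk-VI.2-2* averaged 5.59 ± 0.12 with *Psm* and 5.56 ± 0.04 with MgCl2. In the wild type it averaged 5.84 ± 0.06 and 5.48 ± 0.06 (SD, n = 3 each). With *Psm* the *lecrk-VI.2-2* arrays (5.45 to 5.68) all lay below those of the wild type (5.78 to 5.91), as in 12.0% of all probe sets. That difference, −0.26 (SE 0.08, limma *q* = 0.089), did not pass the test, and with MgCl2 the arrays overlapped at this low signal. *BAK1* averaged 5.48 ± 0.13 with *Psm* and 5.66 ± 0.17 with MgCl2 in *bak1-5*, against 5.96 ± 0.09 and 5.57 ± 0.11 in the wild type (SD, n = 3 each).

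*LURP1* signal was 9.58, 9.56 and 9.26 with *Psm* and 5.12, 5.36 and 5.32 with MgCl2 in *bak1-5*. In *lecrk-VI.2-2* it was 9.42, 9.42 and 8.96 with *Psm* and 7.55, 5.76 and 6.92 with MgCl2. In the wild type it was 9.48, 9.80 and 10.03 with *Psm* and 5.71, 5.87 and 6.43 with MgCl2. Within each genotype every *Psm* array thus lay above every MgCl2 array, as the choice of the genes favors in *bak1-5* and the wild type. The 3 genotypes lay close together with *Psm* and were spread out with MgCl2, where *bak1-5* was lowest and *lecrk-VI.2-2* highest on average. The mean change was 4.2 (SE 0.30) in *bak1-5*, 2.52 (SE 0.30) in *lecrk-VI.2-2* and 3.77 (SE 0.30) in the wild type, or 18.4-fold, 5.75-fold and 13.6-fold.

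*ANK* signal was 9.11, 8.80 and 8.92 with *Psm* and 5.38, 5.32 and 5.10 with MgCl2 in *bak1-5*. In *lecrk-VI.2-2* it was 8.64, 8.87 and 8.52 with *Psm* and 7.28, 6.13 and 6.91 with MgCl2. In the wild type it was 8.59, 8.74 and 8.81 with *Psm* and 5.78, 5.76 and 6.15 with MgCl2. The groups with *Psm* overlapped in all pairs of genotypes, while the order with MgCl2 was the one seen for *LURP1*. The mean change was 3.68 (SE 0.20) in *bak1-5*, 1.91 (SE 0.20) in *lecrk-VI.2-2* and 2.82 (SE 0.20) in the wild type, or 12.8-fold, 3.76-fold and 7.04-fold.

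AT5G03350 signal was 10.88, 10.96 and 10.77 with *Psm* and 6.12, 6.20 and 6.09 with MgCl2 in *bak1-5*. In *lecrk-VI.2-2* it was 10.48, 10.32 and 10.18 with *Psm* and 8.64, 6.90 and 7.69 with MgCl2. In the wild type it was 11.33, 11.10 and 11.29 with *Psm* and 7.52, 7.58 and 8.56 with MgCl2. With *Psm* the 3 genotypes did not overlap, with the wild type highest and *lecrk-VI.2-2* lowest, and with MgCl2 the *bak1-5* arrays stood apart below both other genotypes. The mean change was 4.73 (SE 0.30) in *bak1-5*, 2.58 (SE 0.30) in *lecrk-VI.2-2* and 3.35 (SE 0.30) in the wild type, or 26.6-fold, 6.0-fold and 10.2-fold.

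**Figure D1:**
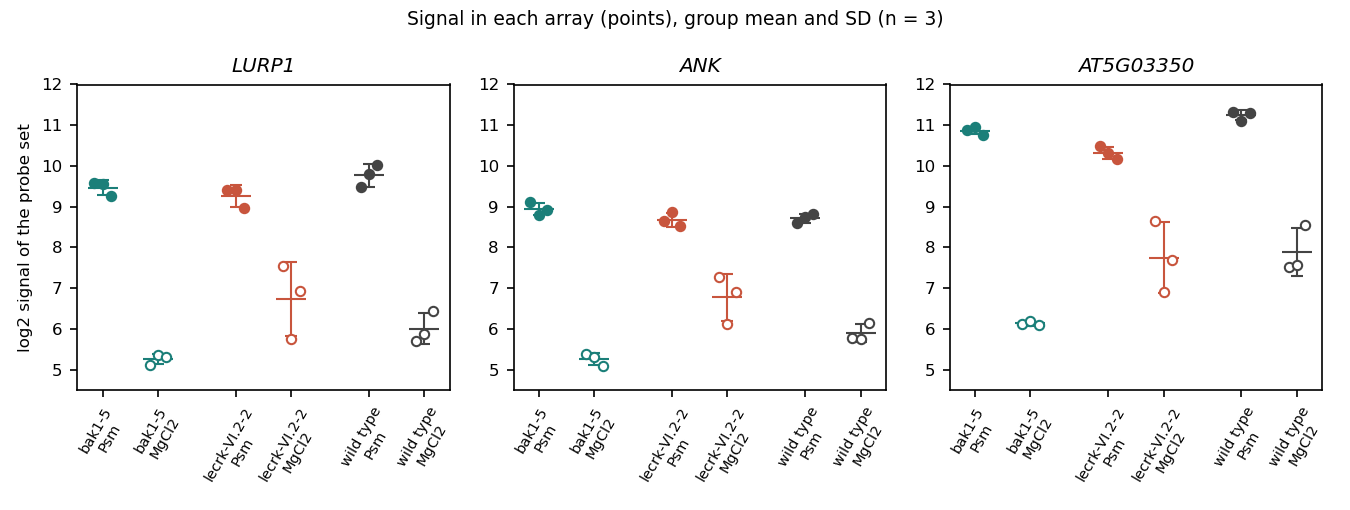
Log2 signal (vertical axis) of *LURP1*, *ANK* and AT5G03350 in each of the 18 arrays, with *Psm* (filled points) beside MgCl2 (open points) for *bak1-5*, for *lecrk-VI.2-2* and for the wild type; horizontal bars are group means and error bars SD (n = 3). Within each genotype each gene is higher in every *Psm* array than in any MgCl2 array. The open points are lowest in *bak1-5* and most widely spread in *lecrk-VI.2-2*.

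In *lecrk-VI.2-2* all 3 genes rose with *Psm* in the limma fit across all probe sets, beside 0.607% of all probe sets raised in this genotype at the limit used for calls, a *q* value of 0.05 or less. The *q* values, with Benjamini-Hochberg adjustment over 22746 probe sets, were 1.7e-04 for *LURP1*, 3.0e-05 for *ANK* and 1.1e-04 for AT5G03350. The 95% intervals of the changes were 1.89 to 3.15 for *LURP1*, 1.49 to 2.33 for *ANK* and 1.96 to 3.21 for AT5G03350. All 3 *Psm* arrays lay above all 3 MgCl2 arrays in each gene, as in 4.88% of all probe sets. Among all probe sets ranked by their change in *lecrk-VI.2-2*, AT5G03350 stood 7th, *LURP1* 9th and *ANK* 18th. A closer reference than all probe sets is the 189 raised at least 2-fold and past the *q* limit in both the wild type and *bak1-5*. Of these, 53 were raised in the same way in *lecrk-VI.2-2*, so a rise there was common among probe sets induced in the other 2 genotypes.

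Without the pair of weak arrays the changes in *lecrk-VI.2-2* were 2.19, 1.66 and 2.24 for *LURP1*, *ANK* and AT5G03350, with limma *q* values of 4.4e-05, 1.3e-05 and 3.0e-04. When the fit held no arrays but the 6 of *lecrk-VI.2-2*, *LURP1* kept its change of 2.52 but its *q* value was 0.052, while *ANK* and AT5G03350 had *q* values of 0.035 and 0.040.

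In *bak1-5* and the wild type the changes of the 3 genes are what chose them. For reference, 4.08% of probe sets were raised at a *q* value of 0.05 or less in *bak1-5* and 7.36% in the wild type, and in 10.7% and 15.1% all 3 *Psm* arrays lay above all 3 MgCl2 arrays. By size of change AT5G03350, *LURP1* and *ANK* stood 2nd, 5th and 12th of 22746 probe sets in *bak1-5*, against 47th, 26th and 93rd in the wild type.

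With MgCl2, where SAR had not been induced, *bak1-5* leaves had less signal of all 3 genes than wild-type leaves. *LURP1* averaged 5.27 ± 0.13 in *bak1-5* and 6.0 ± 0.38 in the wild type, a difference of −0.74 (SE 0.30), so that *bak1-5* had 60.1% of the wild-type signal (SD, n = 3 each). *ANK* averaged 5.26 ± 0.15 in *bak1-5* and 5.90 ± 0.22 in the wild type, a difference of −0.63 (SE 0.20), or 64.4% (SD, n = 3 each). AT5G03350 averaged 6.14 ± 0.06 in *bak1-5* and 7.89 ± 0.58 in the wild type, a difference of −1.75 (SE 0.30), or 29.8% (SD, n = 3 each). In each gene all 3 *bak1-5* arrays lay below all 3 wild-type arrays, with gaps of 0.35, 0.38 and 1.32 for *LURP1*, *ANK* and AT5G03350. The same separation was found in 5.46% of all probe sets. From the lowest difference upward AT5G03350 stood 1st, *LURP1* 18th and *ANK* 30th. The MgCl2 signals of *LURP1* and *ANK* in *bak1-5* were below 6, and the values carry no call of whether such a signal is above background. The *bak1-5* and wild-type arrays with MgCl2 that entered these differences also entered the choice of the genes. A low MgCl2 level in *bak1-5* raises the change there, so the choice itself favors differences, gaps and ranks of this kind. No test is given.

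The MgCl2 levels in *lecrk-VI.2-2* varied most between replicates. Their SD was 0.91 for *LURP1*, 0.59 for *ANK* and 0.87 for AT5G03350, against 0.38, 0.22 and 0.58 in the wild type. The means were 6.74, 6.77 and 7.74 in *lecrk-VI.2-2*, which differ from the wild type by 0.74 (SE 0.30) for *LURP1*, 0.87 (SE 0.20) for *ANK* and −0.15 (SE 0.30) for AT5G03350, and the arrays of *LURP1* and AT5G03350 overlapped. *ANK* also overlapped, with the lowest *lecrk-VI.2-2* array at 6.13 and the highest wild-type array at 6.15. Replicate 2, which is one of the weak arrays, was the lowest *lecrk-VI.2-2* array with MgCl2 for all 3 genes, and replicate 1 the highest. Without replicate 2 the differences became 1.23, 1.19 and 0.28, and without replicate 1 they became 0.33, 0.62 and −0.59, and without wild-type MgCl2 replicate 3 that of AT5G03350 was 0.19, so single arrays set the direction for AT5G03350. The part of the weak array's lower signal in these differences was not tested. Set against *bak1-5* instead, all 3 *lecrk-VI.2-2* arrays lay above all 3 *bak1-5* arrays in each gene, beside 3.82% of all probe sets so separated. The mean differences were 1.48 (SE 0.30), 1.51 (SE 0.20) and 1.60 (SE 0.30) for *LURP1*, *ANK* and AT5G03350. The *bak1-5* arrays of this comparison also entered the choice of the genes.

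With *Psm*, the genotypes lay closer for *LURP1* and *ANK* than with MgCl2. *LURP1* averaged 9.47 ± 0.18 in *bak1-5* and 9.77 ± 0.28 in the wild type (SD, n = 3 each), and the difference of −0.30 had a 95% interval of −0.93 to 0.33. *ANK* averaged 8.95 ± 0.16 in *bak1-5* and 8.71 ± 0.11 in the wild type (SD, n = 3 each), and the difference of 0.23 had an interval of −0.18 to 0.65. Both genes overlapped between these genotypes. AT5G03350 averaged 10.87 ± 0.10 in *bak1-5* and 11.24 ± 0.12 in the wild type (SD, n = 3 each), a difference of −0.37 (SE 0.30) in which the groups were apart by 0.13; in 9.52% of all probe sets all 3 *bak1-5* arrays with *Psm* lay below all 3 of the wild type.

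In *lecrk-VI.2-2* with *Psm*, *LURP1* averaged 9.27 ± 0.27, 0.50 below the wild type (SE 0.30), and all 3 arrays were below all wild-type arrays by a gap of only 0.06. *ANK* averaged 8.68 ± 0.18 and differed from the wild type by −0.03 (95% interval −0.45 to 0.38), with overlapping arrays, and its sign turned in 5 of 26 alternatives. AT5G03350 averaged 10.33 ± 0.15 (SD, n = 3 for each gene), which was 0.91 below the wild type (SE 0.30), with a gap of 0.62 between the groups. Of the 3 genes 2 thus did not overlap, beside 12.0% of all probe sets in which the *lecrk-VI.2-2* arrays with *Psm* all lay below those of the wild type. Against *bak1-5*, AT5G03350 was also lower in *lecrk-VI.2-2*, by 0.54 (SE 0.30) with a gap of 0.29, beside 6.87% of all probe sets so separated; *LURP1* and *ANK* overlapped.

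The difference between 2 changes combines the differences with *Psm* and with MgCl2. The change in *bak1-5* minus that in the wild type was 0.43 (SE 0.42) for *LURP1*, 0.87 (SE 0.28) for *ANK* and 1.38 (SE 0.42) for AT5G03350. Of the 1.38 for AT5G03350, the lower MgCl2 level contributed 1.75 and the *Psm* level −0.37. The change in *lecrk-VI.2-2* minus that in the wild type was −1.24 (SE 0.42) for *LURP1*, −0.91 (SE 0.28) for *ANK* and −0.77 (SE 0.42) for AT5G03350. For *ANK* nearly all of it lay in the MgCl2 level, 0.87 higher in *lecrk-VI.2-2*, whereas for AT5G03350 it lay mainly in the *Psm* level, 0.91 lower. Without *lecrk-VI.2-2* MgCl2 replicate 2 the 3 values were −1.73, −1.23 and −1.19, and without replicate 1 they were −0.84, −0.65 and −0.32.

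**Figure D2:**
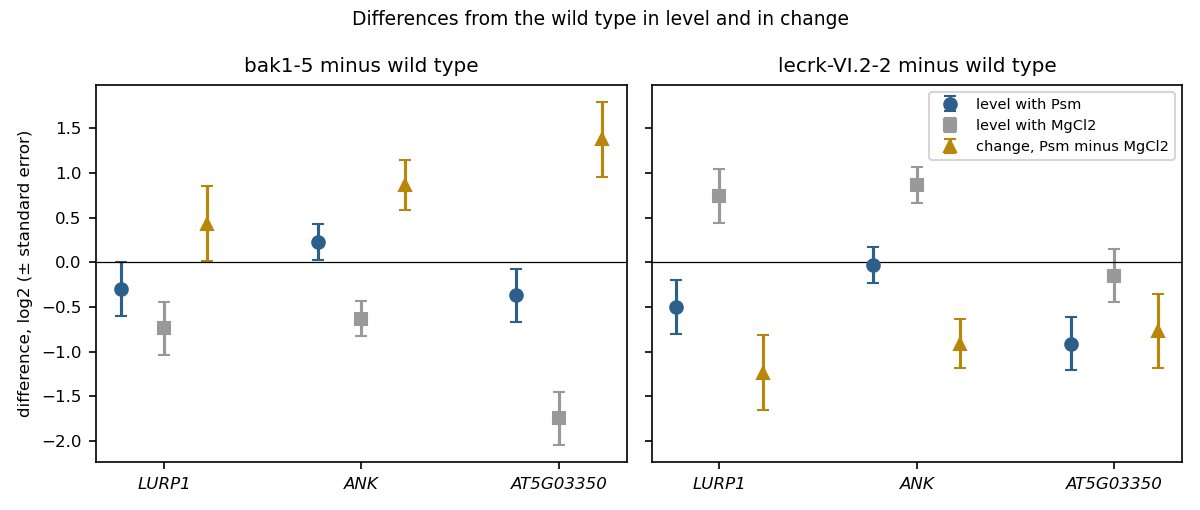
Differences from the wild type on the log2 scale (vertical axis, ± standard error, n = 3 arrays a group) for *bak1-5* and *lecrk-VI.2-2*, in the level with *Psm*, the level with MgCl2 and the change. In *bak1-5* the MgCl2 differences of all 3 genes are below 0 and those of the change above 0, while in *lecrk-VI.2-2* the differences of the change are below 0.

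The 3 genes also varied together between replicates of the same group. After each group mean was taken away, the deviations of *LURP1* and *ANK* correlated at *r* = 0.90 over the 18 arrays, those of *LURP1* and AT5G03350 at 0.90 and those of *ANK* and AT5G03350 at 0.84. Within the 9 MgCl2 arrays the values were 0.94, 0.95 and 0.93, and within the 9 *Psm* arrays 0.64, 0.46 and −0.02. These are descriptions, since the 3 values of an array share one RNA sample and one normalization. The MgCl2 correlations rest largely on *lecrk-VI.2-2* replicates 1 and 2, which deviated by 0.81 and −0.98 for *LURP1*, and on wild-type replicate 3, which deviated by 0.43 and was the highest wild-type MgCl2 array in all 3 genes.

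The wild type raised 564 probe sets at least 2-fold and past the *q* limit of 0.05 (2.48% of those tested). Among them 35 changed in *bak1-5* at least as much as in the wild type (6.21%). The median over these probe sets of the mutant minus wild-type difference was −0.82 for *bak1-5* and −1.09 for *lecrk-VI.2-2*. Ranked by the *bak1-5* minus wild-type difference, AT5G03350 stood 2nd, *ANK* 5th and *LURP1* 14th of the 564, a position that the choice of the genes fixes in part. Just inside the limit of an equal change were *VTC5* and *MPK4*, at 0.03 and 0.02 in favor of *bak1-5*, and just outside it *LYM2* and *RK3*, at −0.01 and −0.02.

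The same ranking for *lecrk-VI.2-2* put AT5G03350 at 125, *ANK* at 184 and *LURP1* at 343, so in this mutant the 3 genes lay inside the spread of the other probe sets raised in the wild type. A change at least as large as in the wild type was seen in *lecrk-VI.2-2* for 3 of the 564 (0.532%), none of them *LURP1*, *ANK* or AT5G03350. The *bak1-5* mean was below the wild-type mean with MgCl2 in 210 of the 564 (37.2%) and with *Psm* in 534 (94.7%). *ANK* was outside the second count, and all 3 genes were inside the first.

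**Figure D3:**
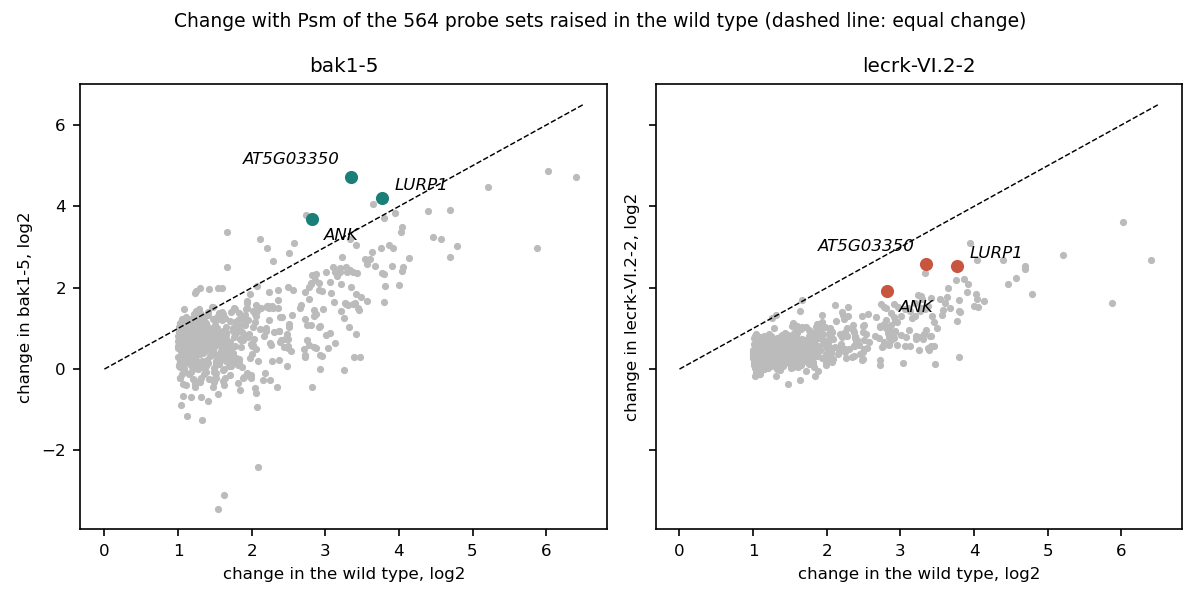
Change with *Psm* on the log2 scale in *bak1-5* (left) and *lecrk-VI.2-2* (right) against that in the wild type (horizontal axes) for the 564 probe sets raised in the wild type (grey points), with *LURP1*, *ANK* and AT5G03350 in color. The 3 genes lie above the dashed line of equal change in *bak1-5*, as they were chosen to, and below it in *lecrk-VI.2-2*.

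The genes whose signal over the 18 arrays was most like the mean scaled profile of the 3 genes were *WAK1*, AT3G22240, AT2G41090, *PCC1*, *ACD6*, AT2G25510, *WRKY70*, *ECS1*, *CNGC11* and *GSTF3*, with Pearson's *r* between 0.992 for *WAK1* and 0.964 for *GSTF3*. The ranking depends on the measure, since by Spearman's correlation 2 of these 10 were among the first 10. *WAK1* is a kinase that spans the membrane and binds the cell wall, *ACD6* a membrane protein with ankyrin repeats that promotes defense, *WRKY70* a transcription factor of the SA pathway, *CNGC11* an ion channel and *GSTF3* a glutathione transferase. Of 14484 other probe sets assigned to 1 gene, 79 had *r* of 0.9 or more and 17 of 0.95 or more. The probe sets of *CNGC11* and *GSTF3* are of a type that can detect several related genes.

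*WAK1* had changes of 4.07 in *bak1-5*, 1.99 in *lecrk-VI.2-2* and 3.64 in the wild type (SE 0.28), and with MgCl2 it was at 4.46 in *bak1-5*, 6.02 in *lecrk-VI.2-2* and 5.22 in the wild type. *PCC1*, an SA-induced gene also under control of the circadian clock, had changes of 3.79, 1.59 and 2.74 in the 3 genotypes in this order (SE 0.30), and its MgCl2 means were 8.26, 10.25 and 9.32. The changes of *ACD6* were 3.21, 1.57 and 2.11 in the same order (SE 0.23), with MgCl2 means of 7.34, 8.79 and 8.12. These 3 genes thus had the same order of genotypes as *LURP1* and *ANK*, in a range of signal for *PCC1* and *ACD6* well above 6 in every group.

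Of the 10 genes, 10 had a lower mean in *bak1-5* than in the wild type with MgCl2, 9 had a higher MgCl2 mean in *lecrk-VI.2-2* than the wild type had, and 8 had a larger change in *bak1-5* than in the wild type. *GSTF3* was the exception in *lecrk-VI.2-2* with MgCl2 (−0.20, SE 0.31), and *WRKY70* and *GSTF3* were the exceptions in the change (−0.14, SE 0.31, and −0.12, SE 0.44). With *Psm* the *bak1-5* mean was above the wild type in 4 and below it in 6. The genes were selected for their likeness over the same arrays, so these counts describe the pattern and do not test it. AT3G22240 and *PCC1* are neighbors on chromosome 3 with 1 protein-coding gene between them in the TAIR10.1 annotation.

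**Figure D4:**
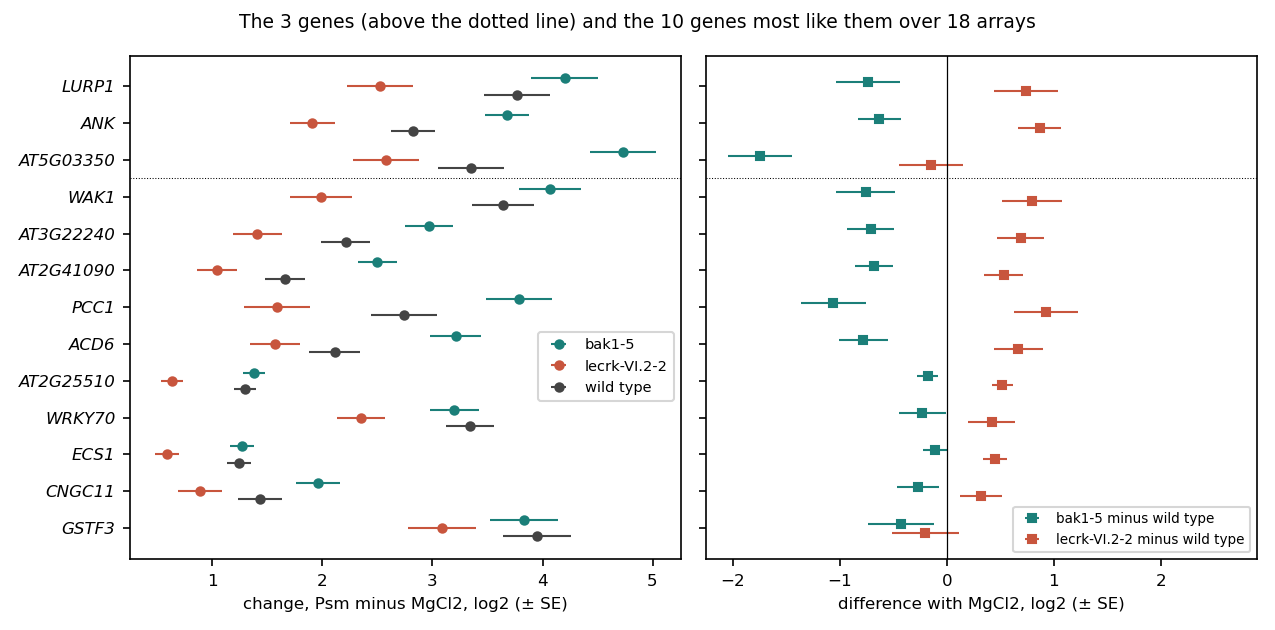
Left, change with *Psm* in the 2 mutants and the wild type; right, *bak1-5* minus wild type and *lecrk-VI.2-2* minus wild type with MgCl2 (log2 scale on both horizontal axes, ± standard error, n = 3 arrays a group), for *LURP1*, *ANK* and AT5G03350 and the 10 genes most like them. All *bak1-5* points on the right lie below 0, and in *lecrk-VI.2-2* all but those of AT5G03350 and *GSTF3* lie above 0.

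Most relatives of the 3 genes in each family changed little. Of 18 LURP-one-related genes other than *LURP1*, 8 had an assigned probe set. Of these, 1 rose in *bak1-5*, 0 in *lecrk-VI.2-2* and 1 in the wild type, beside 4.08%, 0.607% and 7.36% of all probe sets. The medians of the 8 were −0.01, −0.08 and −0.04, beside −0.042, −0.001 and −0.038 over all probe sets. AT3G15810 had changes of 0.49 (limma *q* = 0.026) in *bak1-5*, 0.27 (*q* = 0.55) in *lecrk-VI.2-2* and 1.03 (*q* = 1.8e-05) in the wild type. AT5G01750 fell by 0.56 in the wild type (*q* = 0.0065, where 5.54% of probe sets fell; *q* = 0.056 without wild-type *Psm* replicate 1), with −0.37 in *bak1-5* and −0.24 in *lecrk-VI.2-2* that did not pass the test. AT2G05910 and AT2G38640 stayed between −0.18 and −0.02 in the 3 genotypes. The *bak1-5* call of AT3G15810 was lost when any one *bak1-5* array was left out. The 0 calls in *lecrk-VI.2-2* remained 0 under all 28 alternatives tried.

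Of 38 listed ankyrin repeat proteins with membrane spans other than *ANK*, 24 were assigned. Of these, 3 rose in *bak1-5*, 1 in *lecrk-VI.2-2* and 6 in the wild type, beside 4.08%, 0.607% and 7.36% of all probe sets. The medians of the 24 were −0.06, 0.12 and 0.08. *ACD6* was the 1 that rose in *lecrk-VI.2-2* (1.57, limma *q* = 0.001) and had the largest change of the list in each genotype. AT1G10340 changed by 0.63 (*q* = 0.020) in *bak1-5*, 0.39 (*q* = 0.41) in *lecrk-VI.2-2* and 1.19 (*q* = 4.3e-05) in the wild type, and AT4G03450 by 0.70 (*q* = 0.0048), 0.45 (*q* = 0.20) and 1.15 (*q* = 2.0e-05). *ITN1*, whose product is known from salt tolerance, passed the test in the wild type (0.70, *q* = 0.0011). The *bak1-5* call of AT1G10340 was lost without any 1 of 4 *bak1-5* arrays, with *q* values there of 0.061 to 0.12. The *ACD6* call in *lecrk-VI.2-2* was lost when no other arrays than those of *lecrk-VI.2-2* were fitted (*q* = 0.093).

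Of 9 listed legume lectin-like proteins without a kinase other than AT5G03350, 6 were assigned and only AT3G16530 passed the test. It rose by 1.17 (limma *q* = 0.0034) in *bak1-5*, 1.00 (*q* = 0.042) in *lecrk-VI.2-2* and 0.78 (*q* = 0.029) in the wild type. Over all probe sets, 4.08%, 0.607% and 7.36% rose in these genotypes. The medians of the 6 were −0.05, 0.05 and −0.05, and AT1G53060, AT1G53070 and AT3G54080 stayed between −0.15 and 0.15. The *lecrk-VI.2-2* call of AT3G16530 was lost without any 1 of 12 arrays, which came from all 3 genotypes. Its wild-type call was lost without any 1 of 4 wild-type arrays. The limma *q* values there were 0.050 to 0.26 for the first call and 0.063 to 0.18 for the second.

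**Figure D5:**
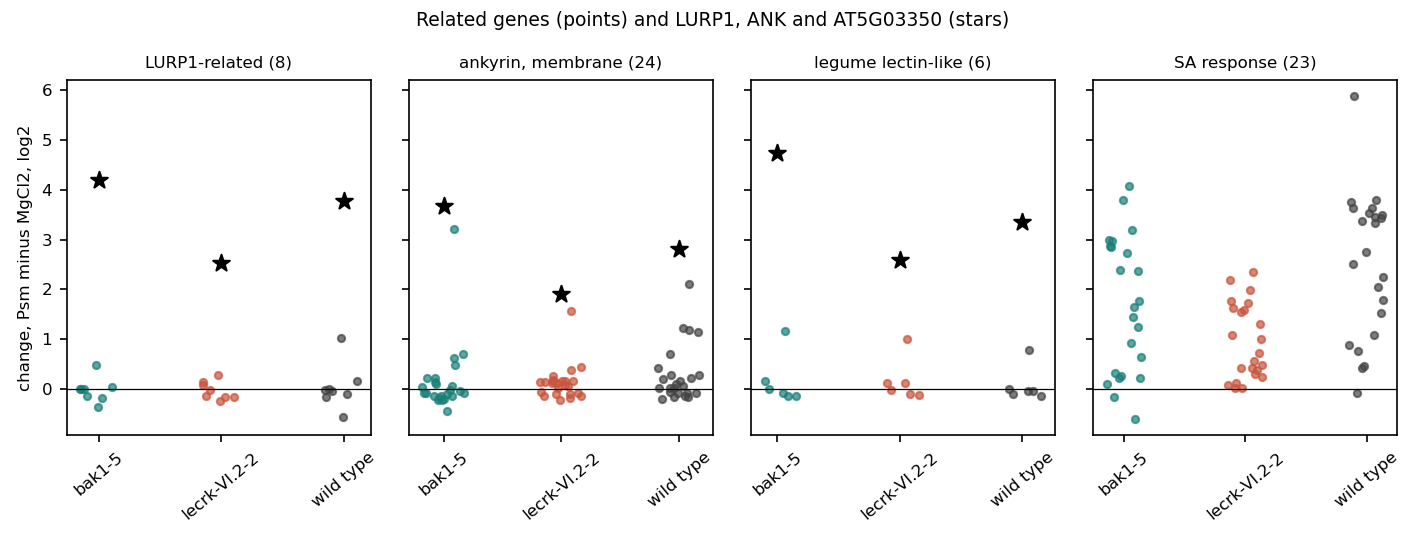
Change with *Psm* on the log2 scale (vertical axis) in each of the 3 genotypes for the assigned members of 4 gene lists (points, number in parentheses), with *LURP1*, *ANK* and AT5G03350 as stars over their own families. The stars lie above every relative in each genotype, as the choice of the genes favors in *bak1-5* and the wild type. The SA response genes reach 4.07 in *bak1-5*, 2.35 in *lecrk-VI.2-2* and 5.88 in the wild type.

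Of the assigned genes within 3 positions of the 3 on the chromosomes, *PR1* and *AtCDC48C* passed the test in the wild type. Only *PR1* passed in *bak1-5*, and none passed in *lecrk-VI.2-2*. Over all probe sets, 4.08% rose in *bak1-5*, 0.607% in *lecrk-VI.2-2* and 7.36% in the wild type. So few genes were assigned that these calls cannot be set against the shares. *LURP1* lies on chromosome 2 with 1 protein-coding gene, *PRB1*, between it and *PR1*, the marker gene of SA signaling. *PR1* changed by 1.65 (limma *q* = 9.5e-07) in *bak1-5*, 0.29 (*q* = 0.60) in *lecrk-VI.2-2* and 3.80 (*q* = 8.8e-12) in the wild type, where *LURP1* had 4.2, 2.52 and 3.77. Tested as a difference of changes from the wild type, *PR1* had −2.15 (SE 0.21, *q* = 4.1e-05) in *bak1-5* and −3.50 (SE 0.21, *q* = 5.7e-08) in *lecrk-VI.2-2*; the difference between *PR1* and *LURP1* was not tested. *ANK* and AT5G03350 lie on chromosome 5. AT5G54620, an ankyrin repeat gene next to *ANK*, had −0.19 in *bak1-5*, 0.12 in *lecrk-VI.2-2* and 0.02 in the wild type, with no call. Of the 4 assigned genes within 3 positions of AT5G03350, only *AtCDC48C* passed the test, in the wild type (0.42, *q* = 0.013).

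The SA response genes give the wider setting. Of 25 listed genes other than the 3, 23 were assigned. Of these, 16 rose in *bak1-5*, 10 in *lecrk-VI.2-2* and 21 in the wild type, beside 4.08%, 0.607% and 7.36% of all probe sets. None of the 23 was lower, and the medians were 1.65, 0.73 and 2.74. Most of them (19 of 23) were named by the match, whose genes all had a wild-type change of at least 0.33, which favors the wild type in these counts. *PR2*, a beta-1,3-glucanase, changed by 2.97 (limma *q* = 1.7e-04), 1.62 (*q* = 0.085) and 5.88 (*q* = 3.2e-08) in the 3 genotypes in the order above. *DMR6*, which encodes an enzyme that hydroxylates SA, rose by 2.99 (*q* = 1.5e-11), 2.18 (*q* = 3.6e-09) and 3.75 (*q* = 2.1e-13), and *WRKY70* by 3.20 (*q* = 3.0e-08), 2.35 (*q* = 8.9e-06) and 3.34 (*q* = 8.3e-09). Tested as a difference of changes, the wild type had the larger change in 7 of the 23 against *bak1-5* and in 13 against *lecrk-VI.2-2*, and the smaller change in 0, beside 1.07% and 1.11% of all probe sets with a smaller change in the mutant. *PR2* was among both, with −2.91 (SE 0.60, *q* = 0.018) in *bak1-5* and −4.26 (SE 0.60, *q* = 8.2e-04) in *lecrk-VI.2-2*. With MgCl2 no gene of the list passed the limma test between *bak1-5* and the wild type, where 0.0044% of probe sets were lower, and the median difference was −0.13. A fit restricted to *lecrk-VI.2-2* arrays called 5 of the list in that mutant. Between the mutants with MgCl2, where 0.0308% of probe sets were higher in *lecrk-VI.2-2*, *PCC1* was 1.99 higher (SE 0.30, *q* = 0.0096) and *WAK1* 1.56 higher (SE 0.28, *q* = 0.048) in *lecrk-VI.2-2* than in *bak1-5*, as was *ACD6* of the ankyrin list, by 1.46 (SE 0.23, *q* = 0.010); these 3 are among the 10 genes found by likeness over the same arrays.

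Genes that make SA and their regulators were called mostly in the wild type, though 7 of the 8 assigned were named by the match that favors it. Of 8 assigned genes of 10, 1 rose in *bak1-5*, 0 in *lecrk-VI.2-2* and 8 in the wild type. Over all probe sets the shares were 4.08%, 0.607% and 7.36%. The medians of the 8 were 0.18, 0.18 and 1.06. Tested as a difference of changes, 3 of the 8 had a smaller change in *bak1-5* and 4 in *lecrk-VI.2-2* than the wild type had. Such a smaller change was found in 1.07% and 1.11% of all probe sets. *EDS1*, a lipase-like regulator, was the 1 that rose in *bak1-5* (0.92, limma *q* = 8.7e-06), beside 0.36 (*q* = 0.12) in *lecrk-VI.2-2* and 1.1 (*q* = 4.6e-07) in the wild type. *PBS3*, an enzyme of SA synthesis, changed by 0.30 (*q* = 0.37), 0.11 (*q* = 0.96) and 2.72 (*q* = 7.7e-09), and *PAD4*, the partner of EDS1, by 0.26 (*q* = 0.27), 0.51 (*q* = 0.075) and 1.79 (*q* = 3.4e-08). *CBP60G*, a transcription factor that activates SA synthesis genes, had 0.10 (*q* = 0.71), 0.27 (*q* = 0.50) and 1.18 (*q* = 2.7e-06). Of the SA receptors, *NPR1* rose by 0.55 (*q* = 0.0068) in *bak1-5* and 0.74 (*q* = 2.4e-04) in the wild type and *NPR4* by 0.59 (*q* = 0.0024) and 0.44 (*q* = 0.012), while *NPR3* had 0.08 (*q* = 0.82) in *bak1-5* and rose by 1.38 (*q* = 4.7e-06) in the wild type; none of the 3 passed in *lecrk-VI.2-2*. The *NPR4* call in the wild type was lost without any 1 of 3 arrays. These 3 were the only assigned genes of 10 listed SA receptors and partners, all named by the match that favors the wild type. With 0.607% of all probe sets raised in *lecrk-VI.2-2*, 0 calls among 3 genes say little.

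Receptors related to the 3 genes were measured in part. *SNC2*, with which ANK acts, had no assigned probe set. Of 8 listed genes of *SNC2* and its relatives 2 were assigned, *RLP23* with changes of 0.59 (limma *q* = 0.0029), 0.35 (*q* = 0.21) and 2.01 (*q* = 1.1e-09) in the 3 genotypes, and *RLP37*, whose probe set can detect several genes, with 2.85 (*q* = 1.6e-09), 1.09 (*q* = 0.0011) and 2.51 (*q* = 5.5e-09). Of 33 lectin receptor kinases, which carry a lectin domain like that of AT5G03350 outside the cell, 5 were assigned, all through the match. Of these, 4 rose in *bak1-5*, 0 in *lecrk-VI.2-2* and 5 in the wild type, beside 4.08%, 0.607% and 7.36% of all probe sets. The match, which also named *RLP23* and *RLP37*, took only genes with a wild-type change of at least 0.33. The wild-type count is thus largely set by the naming, and the share over all probe sets is no fair reference for it. *LECRK-IV.1* had the largest change in each genotype, 1.40 (*q* = 3.0e-05) in *bak1-5*, 0.57 (*q* = 0.16) in *lecrk-VI.2-2* and 1.26 (*q* = 4.4e-05) in the wild type, and *LECRK-IV.4* rose by 1.06 (*q* = 2.0e-04) in *bak1-5* and 0.59 (*q* = 0.013) in the wild type. *LECRK-VI.1* and *LECRK-IV.3* were the other 2 that rose in *bak1-5*, by 0.61 (*q* = 0.014) and 0.45 (*q* = 0.028), calls that were lost without any 1 of 3 and any 1 of 5 *bak1-5* arrays. In the wild type the calls of *LECRK-VI.1* and *LECRK-IV.4* were lost without any 1 of 4 and any 1 of 2 wild-type arrays. *LecRK-VI.2* itself had −0.02 in *bak1-5*, 0.03 in *lecrk-VI.2-2* and 0.36 (*q* = 0.0066) in the wild type. Of 6 assigned genes of receptor complexes, *SOBIR1*, the kinase partner of receptor-like proteins, rose by 1.63 (*q* = 0.0016), 1.43 (*q* = 0.020) and 3.26 (*q* = 4.3e-07) in the 3 genotypes in this order. Its call in *lecrk-VI.2-2* was lost without *lecrk-VI.2-2* MgCl2 replicate 2 (*q* = 0.062), without *Psm* replicate 2 (*q* = 0.13), without the pair of weak arrays (*q* = 0.082) and with no other arrays than those of *lecrk-VI.2-2* (*q* = 0.15). *BKK1*, a close relative of *BAK1* whose probe set can detect several genes, rose in the wild type (0.85, *q* = 0.0020) and had 0.47 and 0.42 in *bak1-5* and *lecrk-VI.2-2*, and *BIK1*, a cytoplasmic kinase of these complexes, had −0.05, 0.01 and 0.17 with no call.

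Jasmonate response genes, a separate branch of defense, also rose. Of 14 assigned genes of 15, 9 rose in *bak1-5*, 4 in *lecrk-VI.2-2* and 13 in the wild type. Over all probe sets the shares were 4.08%, 0.607% and 7.36%. The medians of the 14 were 2.42, 1.60 and 3.39. All but 1 of the 14 were named by the match, which favors the wild type in these counts. That 1, *PDF1.2*, had 0.12, 0.10 and 0.09 in the 3 genotypes in this order, with no call. The 4 in *lecrk-VI.2-2* were *CLH1* (2.69, limma *q* = 0.0056), *LOX2* (1.80, *q* = 0.025), *CORI3* (2.45, *q* = 0.027) and *VSP1* (2.80, *q* = 0.038), and *TAT3*, with the largest change in the wild type (6.40, *q* = 1.2e-05), had 2.69 (*q* = 0.13) in *lecrk-VI.2-2*. Of the list 1 was called without *lecrk-VI.2-2* MgCl2 replicate 1, MgCl2 replicate 2 or *Psm* replicate 2. Their SE in a change was 0.47 to 0.63 for *CLH1*, *CORI3* and *VSP1*, against 0.20 to 0.30 for *ANK*, *LURP1* and AT5G03350.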

How the data were processed

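RNA from systemic leaves was hybridized to ATH1 arrays, 3 for each of 6 groups, and no array was pooled or left out of the main fit. The deposited log2 signals had been computed by the authors with the affy package's Robust Multichip Analysis (RMA) (background correction, quantile normalization, summary of probes); the values hold no detection calls. RMA pulls low signals together, so changes from dim groups may be understated. Of 22810 probe sets, 64 controls were left out. One limma model (version 3.58.1, R 4.3.3, functions lmFit and eBayes) held a mean for each of the 6 groups over all 18 arrays, with 12 residual degrees of freedom, or 18.03 with the prior. Benjamini-Hochberg *q* values are over 22746 probe sets and calls use *q* of 0.05 or less. The steps were tested on simulated data. The number of arrays limits the precision. Names were matched and figures drawn in Python 3.11.15 with pandas 2.3.3, scipy 1.17.1 and matplotlib 3.10.9.

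Probe sets were named by the platform annotation (13473) or by a match of their changes and *q* values, within 0.0006 on the log2 scale, to rows of the study's supplementary gene table (1014), which named *LURP1* and *ANK*; AT5G03350 was named by the platform. All probe sets named by the match had a wild-type change of at least 0.33 (831 of the 1014 were called raised there), so list members lean to genes higher with *Psm* in the wild type. A further 521 had several genes, 11 had conflicting names and 7727 had none. No value of that table is used as a result. The named genes are the 3 genes, the 10 most like them by Pearson's *r*, the 4 members of each list with the largest mean absolute change over the genotypes, the mutated genes and members of counts of 5 or fewer; *PR1*, a member of the SA response list, and the genes flanking the 3 were added after their values were seen. One probe set per gene was used, that with the highest mean. The 3 genes and the lists (SA response, SA synthesis, SA receptors, the 3 families, lectin receptor kinases, *SNC2* relatives, jasmonate response, receptor complexes and cell type markers) were chosen with earlier results of these data known.

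Alternatives were a fit of only the arrays compared, eBayes with trend and robust estimation, array weights, dim probe sets (highest group mean below 6) left out, median centring, cyclic loess, a block for the replicate number, a *q* of 0.01, a fold change of 2, each array and the pair of weak arrays left out, and Spearman's correlation.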

Additional observations from a re-analysis of the deposited data

Results flagged for a closer look

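The results below were singled out because a test of the difference itself found that the change with *Psm* differed between a mutant and the wild type. All are genes named in the text from the lists set beside *LURP1*, *ANK* and AT5G03350, all differences are mutant minus wild type on the log2 scale from the limma fit, with *q* values over all probe sets, and all are below 0. For *LURP1*, *ANK* and AT5G03350 these differences share arrays with the choice of the genes and were not tested.

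Of 100 assigned genes of the lists, 13 had a smaller change than the wild type in both mutants, 11 in *lecrk-VI.2-2* only and 1 in *bak1-5* only, AT2G24600 (−1.68, SE 0.34, *q* = 0.014), and 0 had a larger one. "Only" here means that the other mutant missed the threshold. Over all probe sets, 1.07% had a smaller change in *bak1-5* and 1.11% in *lecrk-VI.2-2*. Many of the list genes were named by the match, whose genes all had a wild-type change of at least 0.33. This favors differences below 0, so the counts are in part set by how the genes were named.

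Of the 13, the text names 8. The differences in *bak1-5* and *lecrk-VI.2-2* were −2.15 (SE 0.21, *q* = 4.1e-05) and −3.50 (SE 0.21, *q* = 5.7e-08) for *PR1*, −2.91 (SE 0.60, *q* = 0.018) and −4.26 (SE 0.60, *q* = 8.2e-04) for *PR2*, and −0.77 (SE 0.16, *q* = 0.018) and −1.57 (SE 0.16, *q* = 2.6e-05) for *DMR6*. They were −2.42 (SE 0.25, *q* = 5.9e-05) and −2.61 (SE 0.25, *q* = 1.8e-05) for *PBS3*, and −1.53 (SE 0.18, *q* = 2.5e-04) and −1.28 (SE 0.18, *q* = 9.7e-04) for *PAD4*. *CBP60G* had −1.08 (SE 0.17, *q* = 0.0028) and −0.91 (SE 0.17, *q* = 0.012). *NPR3* had −1.29 (SE 0.21, *q* = 0.0035) and −1.09 (SE 0.21, *q* = 0.015). *RLP23* had −1.42 (SE 0.16, *q* = 1.4e-04) and −1.66 (SE 0.16, *q* = 1.8e-05).

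Of the 11 that passed in *lecrk-VI.2-2* only, the text names 5, *WAK1* at −1.66 (SE 0.40, *q* = 0.049), *EDS1* at −0.75 (SE 0.14, *q* = 0.011), AT3G15810 at −0.76 (SE 0.18, *q* = 0.044), *RLP37* at −1.42 (SE 0.22, *q* = 0.0023) and *SOBIR1* at −1.84 (SE 0.42, *q* = 0.032). In *bak1-5* the same difference was 0.43 (*q* = 0.90) for *WAK1*, −0.19 (*q* = 0.84) for *EDS1*, −0.54 (*q* = 0.21) for AT3G15810, 0.34 (*q* = 0.78) for *RLP37* and −1.64 (*q* = 0.061) for *SOBIR1*. Between the mutants, *lecrk-VI.2-2* minus *bak1-5*, only *RLP37* of these 5 passed the test, at −1.76 (SE 0.22, *q* = 0.0024).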

How the results depend on the processing

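The changes of *LURP1*, *ANK* and AT5G03350 kept their sign in each genotype under the 26 alternatives tried for each, and the *lecrk-VI.2-2* call was lost only for *LURP1*, in the fit of the arrays compared alone (2.52, *q* = 0.052). Leaving out each array in turn gave 2.03 to 2.93, 1.59 to 2.16 and 2.16 to 3.03 for the *lecrk-VI.2-2* changes of *LURP1*, *ANK* and AT5G03350, 0.33 to 1.23, 0.62 to 1.19 and −0.59 to 0.28 for *lecrk-VI.2-2* minus wild type with MgCl2, and −1.73 to −0.84, −1.23 to −0.65 and −1.19 to −0.32 for *lecrk-VI.2-2* minus wild type in the change. Array weights, which count more variable arrays less, gave 1.39, 1.28 and 0.57 with MgCl2 and −1.88, −1.24 and −1.47 in the change; without the pair of weak arrays the MgCl2 values of *LURP1* and *ANK* were 1.23 and 1.19. The cause of these shifts was not tested.

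Counts of list members raised moved by over 1.5 times as follows. SA response in *lecrk-VI.2-2* was 5 with only the arrays compared. SA synthesis was 0 in *bak1-5* with a fold change of 2, 1 in *lecrk-VI.2-2* with array weights and 1 with cyclic loess, and in the wild type 2 with dim probe sets left out and 5 with a fold change of 2. LURP-one-related genes in *bak1-5* were 0 at a *q* of 0.01 and 0 with a fold change of 2. Ankyrin genes in *bak1-5* were 5 with array weights and 1 with a fold change of 2, and in *lecrk-VI.2-2* 0 with only the arrays compared and 4 with array weights. Legume lectin-like genes in *lecrk-VI.2-2* were 0 with only the arrays compared, at a *q* of 0.01, with a fold change of 2 and with the replicate block, and in the wild type 0 at a *q* of 0.01 and with a fold change of 2. Jasmonate genes in *lecrk-VI.2-2* were 0 with only the arrays compared, 1 with the trend, 1 at a *q* of 0.01 and 12 with array weights. Leaving out each array gave 0 to 1 for SA synthesis in *lecrk-VI.2-2*, LURP-one-related genes in *bak1-5* and legume lectin-like genes in both *lecrk-VI.2-2* and wild type, 1 to 2 for ankyrin genes and 1 to 5 for jasmonate genes in *lecrk-VI.2-2*. By Spearman's correlation 2 of the 10 most similar genes were shared. Of 64 called values of named list genes, 48 kept their call under every alternative, 16 lost it under 1 or more and 0 turned sign.

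The replicate numbers did not pair the samples: of 15 pairs of groups for each number, 2, 3 and 3 had deviations that correlated above 0.1 (range −0.44 to 0.32), and 6 of 18 arrays correlated best with their own number. With the replicate block the *lecrk-VI.2-2* changes were 2.52 (*q* = 4.4e-04), 1.91 (*q* = 7.7e-05) and 2.58 (*q* = 1.8e-04), so no call of the 3 genes changed, the calls of AT3G16530 (*q* = 0.051) and *VSP1* (*q* = 0.052) in *lecrk-VI.2-2* were lost, and 895 probe sets were raised in *bak1-5*, 140 in *lecrk-VI.2-2* and 1649 in the wild type, against 929, 138 and 1674 without it. The fit of the arrays compared alone raised 26 in *lecrk-VI.2-2*, cyclic loess 274 and array weights 506.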
